A study of Mus musculus with 12 samples.

Results

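The 6 STAT genes described here are Stat2, Stat3, Stat4, Stat5a, Stat5b and Stat6, found by their Ensembl identifiers among the 54232 genes of a count table of tumour-infiltrating lymphocytes. They were taken as a named family and not for their values, and all 6 were among the 13279 genes that passed the filter on low counts. The 12 libraries held natural killer (NK) cells or CD8 T cells that had been sorted from subcutaneous tumours of MC38, a mouse colon adenocarcinoma line, 8 to 10 days after injection. The tumour-bearing mice were sex- and age-matched animals on the C57BL/6N background and were either wild type (WT), lacked the Janus kinase TYK2 (TYK2KO, here KO) or had the protein with its kinase switched off by an exchanged residue (TYK2KE, here KE). Each of the 6 groups (NK WT, NK KO, NK KE, CD8 WT, CD8 KO and CD8 KE) had 2 libraries of 300 sorted cells each. NK cells had been gated as CD45 positive, CD3ε negative and NK1.1 positive, CD8 T cells as CD45, CD3ε and CD8a positive. The mutations were carried in every cell of the mice, so the tumour's other host cells carried them as well. The labels do not say whether the replicates came from separate mice, so the p-values measure the spread between these libraries.

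STAT proteins are transcription factors that wait in the cytoplasm until a Janus kinase at a cytokine receptor phosphorylates them, whereupon they pair, enter the nucleus and bind DNA. STAT2 acts in the type I interferon pathway as part of ISGF3, a complex with IRF9 that binds interferon-stimulated response elements (ISRE). The other members bind gamma-activated sites (GAS): STAT4 serves interleukin 12, STAT3 serves interleukins 6, 10 and 21, STAT5A and STAT5B serve interleukins 2, 7 and 15, and STAT6 serves interleukin 4. TYK2 is bound to the receptors for type I interferon and interleukin 12, among others, and several STAT genes, Stat2 included, are themselves interferon-stimulated genes.

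In the GRCm38 annotation the 6 genes lie on 3 chromosomes, and all are protein coding. Stat4 (ENSMUSG00000062939) lies on chromosome 1 from 51987148 to 52107189 on the plus strand. Stat6 (ENSMUSG00000002147, 127642986 to 127660957) and Stat2 (ENSMUSG00000040033, 128270559 to 128292849) both lie on the plus strand of chromosome 10, with 609601 bases between them. Stat5b (ENSMUSG00000020919, 100780731 to 100850724, minus strand), Stat5a (ENSMUSG00000004043, 100859351 to 100885169, plus strand) and Stat3 (ENSMUSG00000004040, 100885098 to 100939540, minus strand) form a cluster of 158810 bases on chromosome 11. The starts of Stat5b and Stat5a face away from each other over 8626 bases, and the ends of Stat5a and Stat3 overlap by 72 bases on opposite strands. Whether strand was used in counting is not given in the sources used here, so reads in that overlap are uncertain for both genes. Stat5a and Stat5b share 608 of their 50-base windows. Windows shared with another gene make up 15.9% of Stat5a, those shared with Stat3 included, and 11.1% of Stat5b, and reads that align to several places had been left out. Of the exon bases of Stat4, 32.8% also lie in Gm28177, a gene model on the same strand that had 0 to 10 counts in the 12 libraries, so the counts of Stat4 are uncertain to that extent.

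The bases before the RefSeq start of Stat2 are shown because the transcript is itself a known interferon target and because Stat2 had the largest difference between genotypes among the 6 genes. The 250 bases on GRCm38.p6 (RefSeq), chr10:128270248-128270497, plus strand, are given 5′ to 3′ with the letters that match an ISRE-like pattern in capitals.
Stat2: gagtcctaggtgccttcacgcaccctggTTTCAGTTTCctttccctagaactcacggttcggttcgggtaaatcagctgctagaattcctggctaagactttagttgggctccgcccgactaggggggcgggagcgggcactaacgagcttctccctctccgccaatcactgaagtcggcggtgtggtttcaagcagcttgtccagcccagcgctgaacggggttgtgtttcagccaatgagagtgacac
The pattern searched was GAAANNGAAA, read on both strands (TTTCNNTTTC on the other), within the 250 bases before each RefSeq start. It occurred in 978 of 32851 promoters, or 2.98%. Of the 9 promoters listed for the 6 STAT genes, 2 held it, that of Stat2 at 222 to 213 bases before the start and the downstream one of the 2 listed for Stat4. The GAS-like pattern TTCNNNGAA, which reads the same on both strands, occurred in 7.02% of promoters and in 0 of these 9. Of 13 textbook ISGF3 targets, 9 had a promoter in the table and 7 of these held the ISRE-like pattern. The 10 letters of the Stat2 match, TTTCAGTTTC, stood in 0.207% of all promoters in either orientation and in those of 4 of the ISGF3 targets, which are shown with 8 bases, or as many as remain before the start, on each side and with the match in capitals. The match in Stat4 is given for comparison.
Stat2, chr10:128270268-128270293, plus strand: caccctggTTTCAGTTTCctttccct
Ifit3, chr19:34583399-34583424, plus strand: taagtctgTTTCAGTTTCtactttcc
Ifit1, chr19:34640796-34640821, plus strand: agtctcagTTTCAGTTTCtcactgct
Bst2, chr8:71537579-71537604, minus strand: aggaaaatGAAACTGAAAggctgcag
Oas1a, chr5:120907526-120907547, minus strand: gggaaatgGAAACTGAAAatct
Stat4, chr1:52008135-52008160, plus strand: tgtcttcaGAAAGTGAAAtttagaac
A match describes the letters only. No binding was measured here.

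Total counts lay between 10378761 and 14732882 per library. Tyk2 itself did not separate the genotypes, with 56.3 to 119 CPM (counts per 1e+06 after TMM scaling) in the 4 mutant NK libraries against 60.8 and 68.9 in NK WT, and 46.7 to 73.8 CPM in the mutant CD8 libraries against 48.3 and 86.1 in CD8 WT, which leaves the genotypes of the libraries unchecked by this gene. The sort markers separated the 2 cell types: 7 T cell markers summed to 10781 to 15164 CPM in CD8 libraries and, in NK libraries, to 65.7 and 112 CPM in WT, 90.6 and 319 CPM in KO, and 225 and 340 CPM in KE. In CD8 libraries 6 NK cell markers summed to 1115 to 1727 CPM. In NK libraries these 6 summed to 4476 and 5635 CPM in WT, 7955 and 6132 CPM in KO, and 8492 and 7350 CPM in KE. Both WT libraries thus lay below all mutant NK libraries. A list of 12 myeloid markers, which the NK gate should leave out, summed to 16276 and 13944 CPM in the NK WT libraries, 7356 and 221 in NK KO, 335 and 602 in NK KE, and 59.8 to 590 in the CD8 libraries. All 12 were detected in NK WT. Of the 6 T cell markers tested, 2 were higher in the NK mutants at an unadjusted edgeR p under 0.05 (median log2 fold change 1.19). Summed neutrophil, B cell, epithelial and stromal markers stayed between 0 and 35.9 CPM in every library, and 4 gamma-delta T cell markers summed to 48.5 to 674 CPM.

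Levels of different genes can be compared only per length, for which transcripts per 1e+06 (TPM) were computed from the union of annotated exons. In means over the 6 libraries of a cell type, Stat4, Stat3 and Stat6 were the abundant members and Stat2, Stat5a and Stat5b the scarce ones. These means pool the genotypes. In CD8 WT alone Stat2 had 60.5 TPM beside 58.4 TPM for Stat6. In NK cells the mean over the 6 libraries was 171 ± 52.2 TPM (SD, n = 6) for Stat4, 121 ± 46.7 TPM for Stat3, 96.6 ± 37.4 TPM for Stat6, 20.5 ± 8.38 TPM for Stat2, 10.8 ± 5.96 TPM for Stat5a and 9.20 ± 4.94 TPM for Stat5b. The only step in this order where the libraries did not overlap was from Stat6 (66.2 to 160 TPM) to Stat2 (11.7 to 35.6 TPM).

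In CD8 T cells the order of these pooled means was the same, with 131 ± 22.7 TPM (SD, n = 6) for Stat4, 122 ± 33.4 TPM for Stat3, 53.4 ± 17.3 TPM for Stat6, 28.1 ± 26.3 TPM for Stat2, 14.3 ± 4.22 TPM for Stat5a and 14.1 ± 5.83 TPM for Stat5b. Here the libraries did not overlap from Stat3 (88.0 to 168 TPM) to Stat6 (39.3 to 79.6 TPM). Stat4 and Stat3 exchanged order in 2 of the 6 CD8 libraries and in 1 of the 6 NK libraries, so these neighbours did not differ beyond their spread. Stat5a and Stat5b likewise exchanged order, with Stat5a higher in 3 of 6 CD8 libraries and 4 of 6 NK libraries. Stat6 lay above Stat2 in 5 of 6 CD8 libraries, and CD8 WT 1 had the reverse (45.8 against 70.1 TPM). With the length of Stat4 cut to the 50-base windows that no other gene shares, an alternative chosen after seeing the data, its mean rose to 238 TPM in NK cells and 183 TPM in CD8 T cells. That it stayed first was fixed in advance, since a shorter length can only raise its level.

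**Figure D1:**
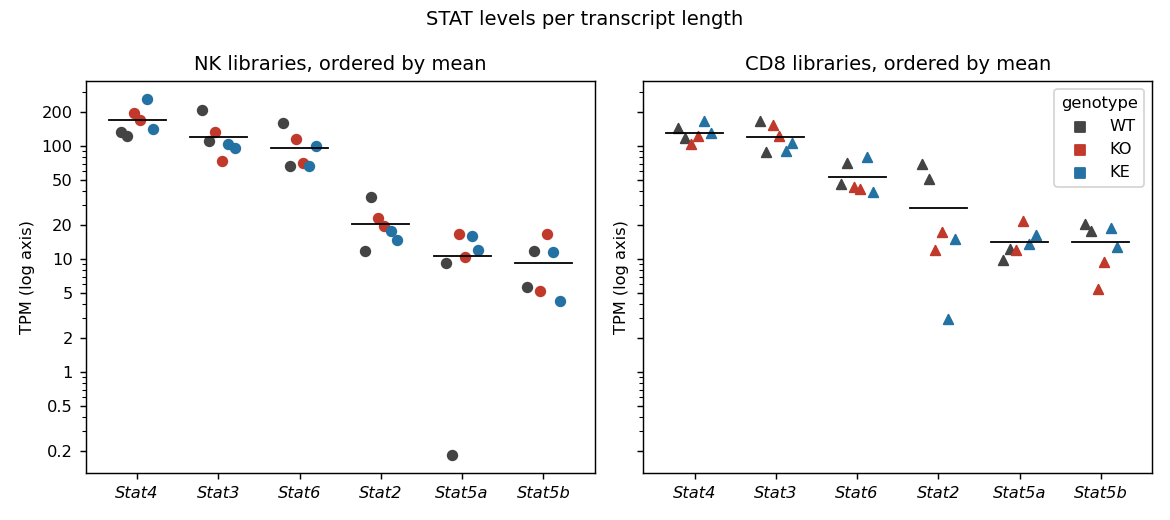
Levels of the 6 STAT genes in TPM on a log axis in the 6 NK libraries (circles, left) and 6 CD8 libraries (triangles, right), coloured by genotype, with the mean as a line. Stat4, Stat3 and Stat6 stand above Stat2, Stat5a and Stat5b in the means of both panels, and the lowest point is Stat5a in NK WT 2 at 0.184 TPM.

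Of the summed TPM of the 6 genes, Stat4 held 40.1 ± 10.2% (SD, n = 6) in NK and 36.4 ± 5.53% in CD8 libraries, and Stat3 held 27.8 ± 6.96% and 33.6 ± 8.44%. Stat6 held 22.3 ± 5.98% in NK libraries and 14.8 ± 4.58% in CD8 libraries. The remaining 3 genes held between 0.0532% and 15.3% in single libraries.

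Stat2 was the member with the largest genotype difference, and that difference lay in CD8 T cells. The CD8 WT libraries had 181 and 124 CPM, the CD8 KO libraries 29.9 and 40.8 CPM, and the CD8 KE libraries 7.19 and 39.3 CPM. All 4 mutant CD8 libraries thus lay below both WT libraries, an order that 7.49% of the 13279 genes showed in this direction. The lowest value, in CD8 KE 1, rested on 87 counts. The mean of the WT group was 153 ± 40.4 CPM (SD, n = 2), that of the KO group 35.3 ± 7.77 CPM and that of the KE group 23.3 ± 22.7 CPM.

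With edgeR's quasi-likelihood test, the mean of KO and KE differed from WT in CD8 T cells by -2.41 on the log2 scale (SE 0.64, 95% interval -3.83 to -0.995). Adjusted over all genes tested by the Benjamini-Hochberg method the value was 0.342 (FDR), so Stat2 was not called under the rule of an FDR under 0.05 with a log2 fold change of at least 1, which 0.203% of genes passed in this comparison. It ranked 132 by p among the 13279 genes, and 4.35% of genes were lower at an unadjusted p under 0.05. Against WT alone, KO gave -2.11 (SE 0.80, FDR 0.887), where 2.54% of genes were lower at an unadjusted p under 0.05, and KE gave -2.71 (SE 0.82, FDR 0.599), where 3.02% were. The KO and KE values share the 2 WT libraries as their control. Markers of other cells also differed in this comparison. Of 3 tested gamma-delta T cell markers 1 was called lower in the CD8 mutants, Trdc, with 143 and 177 counts in WT and 1 to 3 counts in the mutant libraries, while the summed list had 279 and 48.5 CPM in WT, 72.1 and 136 CPM in KO, and 674 and 166 CPM in KE. The stromal list, with 2 of 3 tested markers lower at an unadjusted p under 0.05, summed to 18.2 and 35.9 CPM in WT and to 0 to 4.98 CPM in the mutants. The part of these cells in the Stat2 difference was not tested.

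The call on Stat2 depended on the tool. DESeq2, the tool of the study, called it in KE against WT (log2 fold change -2.75, FDR 0.0355) and in both mutants together (-2.45, FDR 0.0281), but not in KO against WT (-2.14, FDR 0.236). DESeq2 called 2.42% of genes in the first of these comparisons and 2.32% in the second. Without the filter on low counts edgeR also called Stat2 in both mutants together (FDR 0.0256), where it called 0.882% of 23707 genes. The direction held in every fit. When each CD8 library was left out in turn, the edgeR value for both mutants lay between -3.26 (without CD8 KE 2) and -2.03 (without CD8 KE 1). The value for KE alone lay between -4.41 (without CD8 KE 2) and -1.96.

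In NK cells Stat2 had 27.7 and 82.4 CPM in NK WT, 53.0 and 43.4 CPM in NK KO, and 38.6 and 32.7 CPM in NK KE. The mutant libraries lay within the span of the WT libraries, which differed from each other more than any other pair of NK libraries. The edgeR difference of both mutants from WT was -0.41 (SE 0.65, 95% interval -1.86 to 1.04, FDR 1.00), and without NK WT 2 it was 0.57. The KO and KE values against WT were -0.19 (SE 0.77) and -0.63 (SE 0.77). The myeloid sums were largest in the NK WT libraries. Their part in these values, and in the comparison with CD8 T cells below, was not tested.

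An interaction term compared the Stat2 difference of NK cells with that of CD8 T cells. The NK value minus the CD8 value was 2.00 on the log2 scale for both mutants (SE 0.95, 95% interval -0.11 to 4.11, edgeR FDR 0.883), which does not pass. It was 1.92 for KO alone (SE 1.09) and 2.09 for KE alone (SE 1.10). With each library left out in turn, the value for both mutants lay between 1.45 (without NK WT 1) and 3.01 (without NK WT 2), that for KO between 1.36 and 2.91 and that for KE between 1.33 and 3.78. Among the WT libraries, the Stat2 level of NK minus CD8 was -1.47 on the same scale (SE 0.78, FDR 0.547), and it was -0.92 without NK WT 1 and -2.48 without NK WT 2.

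**Figure D2:**
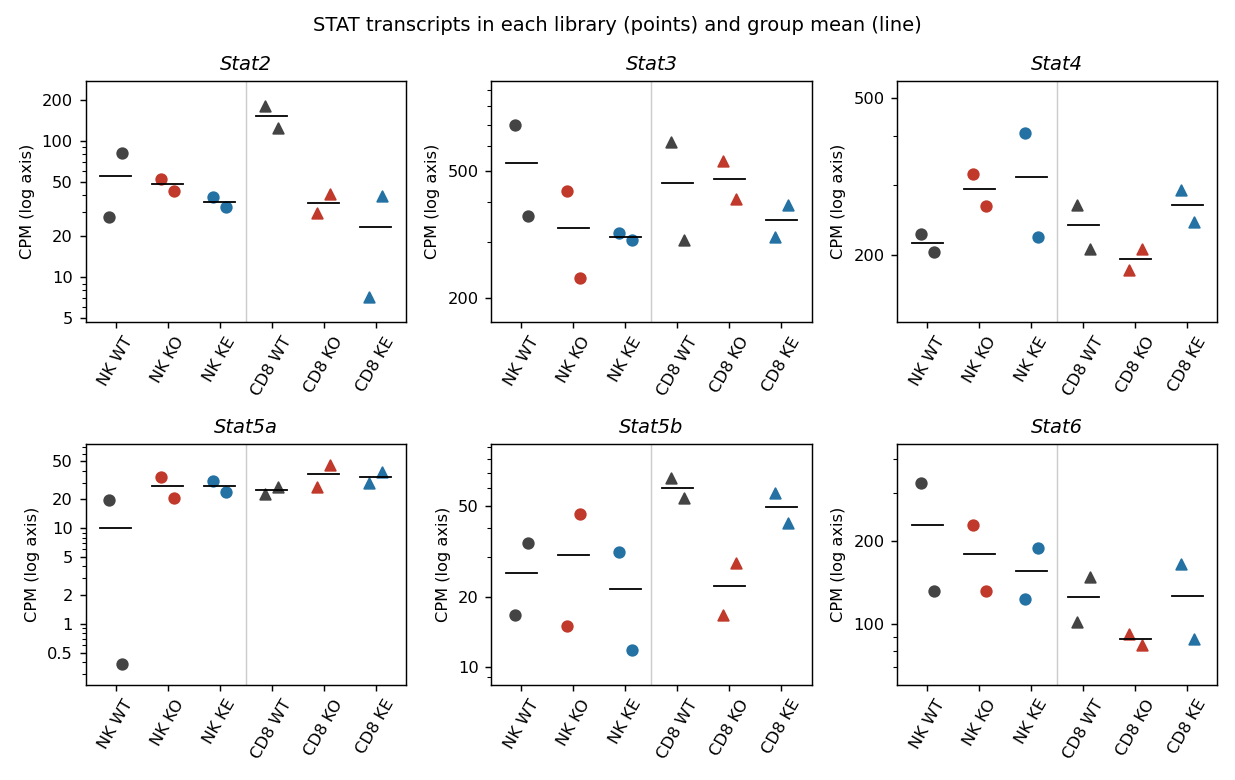
CPM of each STAT gene on a log axis in the 12 libraries (points, circles for NK and triangles for CD8) with the mean of each group of 2 as a line. The CD8 WT libraries of Stat2 stand at 124 and 181 CPM above all other libraries of that gene, and Stat5a in NK WT 2 stands alone at 0.385 CPM.

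Textbook targets of ISGF3 were set beside Stat2, as a list of 13 genes chosen with earlier results of these libraries known. At an unadjusted edgeR p under 0.05, 11 of the 13 were lower in both mutants than in WT in CD8 T cells, against 4.35% of all genes, and 10 of the 13 in NK cells, against 6.85%. None reached the FDR rule in either cell type. The median log2 fold change of the list was -3.28 in CD8 T cells and -3.29 in NK cells, where the median of all genes was 0 and -0.05. The mutant mean of Oas2 lay under the floor of 3 counts per library in both cell types, and with Oas2 at that floor the medians are the same by construction, since it stays beyond them. In NK cells the myeloid sum given above was lower in the mutants as well, with 9 of its 12 markers lower at an unadjusted p under 0.05 and a median log2 fold change of -4.60, and its part in the NK values of the list was not tested. Of the 12 markers 1 was lower at that level in CD8 T cells, with a median of 0.22 over the list. Bst2, a surface protein that tethers budding virus, went from a mean of 257 CPM to 59.8 CPM in CD8 T cells (log2 fold change -2.12, SE 0.38, FDR 0.0727) and from 244 to 51.0 CPM in NK cells (-2.26, SE 0.38, FDR 0.0819). Usp18, an inhibitor of the type I interferon receptor, had 316 and 241 CPM in CD8 WT, 1.38 and 12.7 CPM in CD8 KO, and 4.38 and 0.146 CPM in CD8 KE, with no fold given since CD8 KE 2 stood near 0 (FDR 0.0862). In NK cells it went from 279 to 29.9 CPM (-3.29, SE 1.03, FDR 0.361).

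Oas1a and Oas3, which make the activator of an RNase, Rsad2 and Mx2, both antiviral effectors, and Oas2 were at or near 0 in part of the mutant libraries, so their levels are given without a fold. Oas1a had 119 and 136 CPM in NK WT, 5.94 and 0.0739 CPM in NK KO and no count in either NK KE library. Oas3 had 158 and 127 CPM in NK WT, 0 and 0.222 CPM in NK KO, and 9.40 and 14.7 CPM in NK KE. Both genes were thus far below WT in every mutant NK library, while in CD8 T cells Oas3 had 54.0 and 33.3 CPM in WT and 44.0 CPM in CD8 KO 2, within the span of WT. In CD8 T cells Rsad2 had 111 and 44.7 CPM in WT and 0 to 7.69 CPM in the 4 mutant libraries, and Mx2 had 40.3 and 52.3 CPM in WT and 0 to 5.81 CPM in the mutants. In NK cells, however, Mx2 had 32.4 CPM in NK KO 2, within the span of NK WT (30.8 and 62.1 CPM). Oas2 had 42.9 and 65.2 CPM in NK WT and at most 0.150 CPM in the mutant NK libraries, while in CD8 T cells it was detected in CD8 WT 1 alone, at 26.5 CPM.

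Irf9, which encodes the DNA-binding partner of STAT2 in ISGF3, had a log2 fold change of -0.97 in CD8 T cells (SE 0.44, edgeR FDR 0.725) and -0.90 in NK cells (SE 0.44, FDR 0.592). The mutant libraries overlapped with WT for Isg15 and Mx2 in NK cells and for Irf9, Oas2 and Oas3 in CD8 T cells, as they did for Stat2 in NK cells. The list and Stat2 were not tested against each other.

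**Figure D3:**
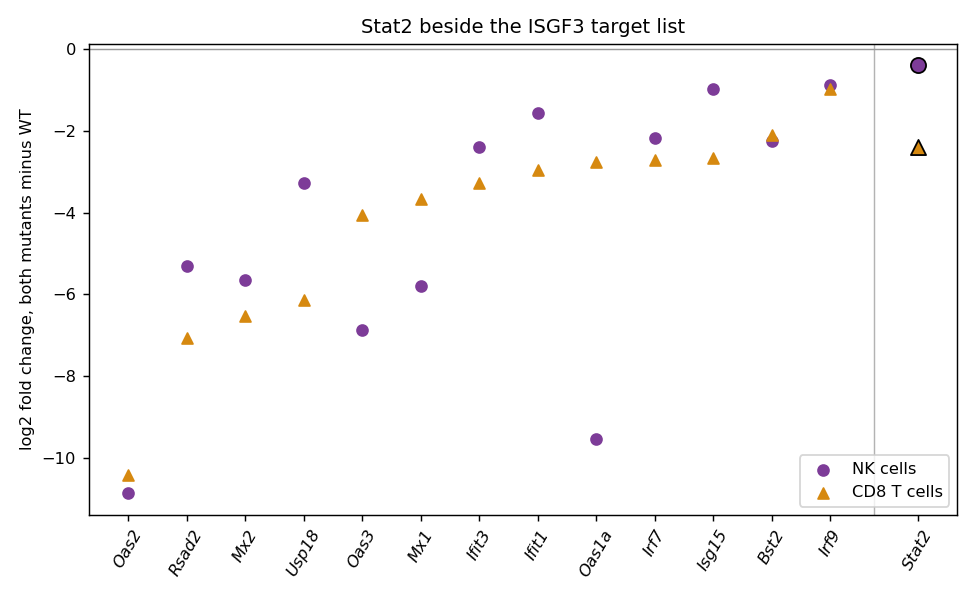
Fitted log2 fold changes (edgeR) of both mutants against WT for 13 ISGF3 targets, ordered by the CD8 value, and for Stat2 at the right, in NK cells (circles) and CD8 T cells (triangles). All points of the targets lie below 0, Stat2 lies at -2.41 in CD8 T cells and at -0.41 in NK cells, and the values of Oas genes, Mx1, Mx2, Rsad2 and others with mutant libraries at or near 0 are no bounds.

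Stat4 varied least among the 6 genes between libraries of a group, with a biological coefficient of variation of 29.1%, where the median of all genes tested was 98.5%. It had 226 and 203 CPM in NK WT, 321 and 267 CPM in NK KO, and 409 and 222 CPM in NK KE. In CD8 T cells it had 268 and 207 CPM in WT, 183 and 207 CPM in KO, and 291 and 243 CPM in KE. All mutant NK libraries but NK KE 2 lay above both WT libraries, and the difference of both mutants from WT was 0.50 on the log2 scale (SE 0.27, edgeR FDR 0.639). The 6 NK cell markers had a median log2 fold change of 0.46 in the same comparison, and the myeloid sums were largest in NK WT. The part of cell composition in the Stat4 values was not tested. The NK values of KO (0.45, SE 0.30) and KE (0.56, SE 0.31) stood close to each other, and the KE value was 0.05 without NK KE 1. In CD8 T cells the difference of both mutants was -0.06 (SE 0.26, 95% interval -0.64 to 0.52).

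Of 8 textbook STAT4 targets, 0 were called and 1 was lower at an unadjusted p under 0.05 in each cell type, where 4.35% of all genes were in CD8 T cells and 6.85% in NK cells. That gene was Gzmb, the cytolytic protease granzyme B, with a mean of 10923 CPM in CD8 WT against 2803 CPM in the mutants (log2 fold change -1.97, SE 0.48, FDR 0.274) and of 5943 against 1498 CPM in NK cells (-1.99, SE 0.48, FDR 0.218). The medians over the 8 genes were -0.29 in CD8 T cells and -0.43 in NK cells, beside 0 and -0.05 over all genes.

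Stat3 had 698 and 362 CPM in NK WT, 433 and 231 CPM in NK KO, and 320 and 303 CPM in NK KE. Both KE libraries lay below both WT libraries, while NK KO 1 lay between them. The difference of both mutants from WT in NK cells was -0.72 on the log2 scale (SE 0.35, edgeR FDR 0.594), and it was -0.17 without NK WT 1. The CD8 libraries had 616 and 303 CPM in WT, 538 and 409 CPM in KO, and 311 and 391 CPM in KE, where the mutants lay within the span of WT (-0.17, SE 0.36).

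Stat6 followed a similar order in NK cells, with 326 and 132 CPM in WT, 229 and 132 CPM in KO, and 124 and 189 CPM in KE (both mutants against WT -0.45, SE 0.42, edgeR FDR 0.927), and the difference turned to 0.34 without NK WT 1. The library with the most Stat3 and Stat6, NK WT 1, also had the largest myeloid sum, 16276 CPM. NK WT 2, with 13944 CPM, lay near the mutants for Stat6, and NK KO 1, with 7356 CPM, was second for both genes. STAT3 and STAT6 are also expressed in macrophages, and the part of the myeloid RNA in these levels was not tested. In such bulk samples fewer cells of a type and less RNA per cell cannot be told apart. In the CD8 libraries Stat6 had 102 and 148 CPM in WT, 91.9 and 83.8 CPM in KO, and 165 and 88.3 CPM in KE.

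**Figure D4:**
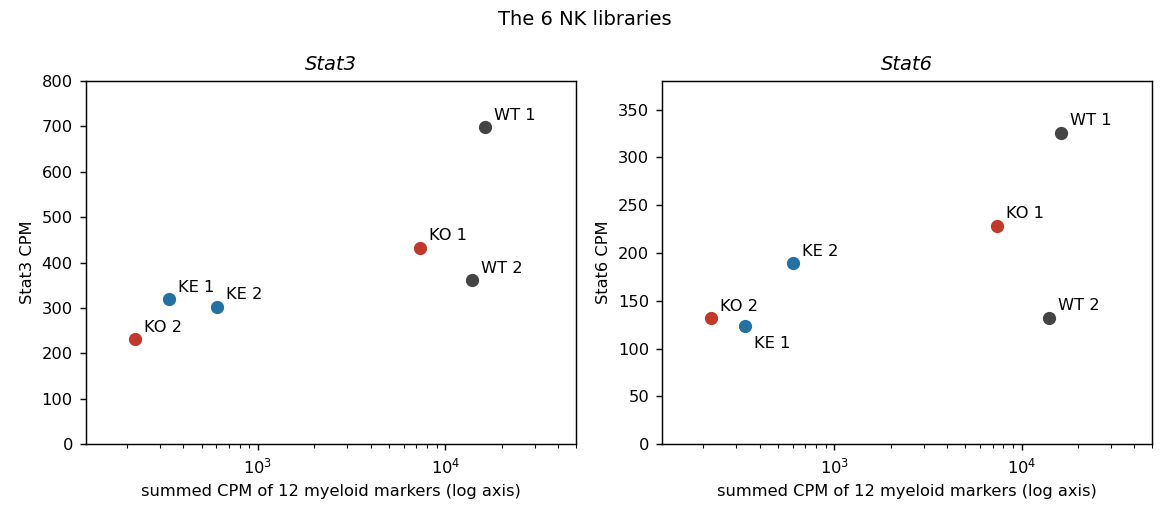
CPM of Stat3 (left) and Stat6 (right) in each NK library against the summed CPM of 12 myeloid markers on a log axis, coloured by genotype. NK WT 1 is highest on both axes in both panels, at 16276 CPM of myeloid markers, and the 3 libraries with sums of 221 to 602 CPM have Stat3 at 231 to 320 CPM.

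Stat5a and Stat5b, close paralogs that respond to the common gamma chain cytokines, were the scarce members and varied most. Stat5a had 19.8 and 0.385 CPM in NK WT, 34.4 and 20.6 CPM in NK KO, and 31.4 and 23.97 CPM in NK KE. The value of NK WT 2 rested on 5 counts, where the other 11 libraries had 237 to 557. All 4 mutant NK libraries lay above both WT libraries, as 7.08% of all genes did, but the difference of 1.45 on the log2 scale (SE 1.20, edgeR FDR 0.872) was 0.46 without that library and 6.13 without NK WT 1. In CD8 T cells Stat5a had 22.9 and 27.0 CPM in WT, 26.7 and 46.2 CPM in KO, and 29.4 and 38.7 CPM in KE (0.50, SE 1.14).

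Stat5b had 16.7 and 34.6 CPM in NK WT, 15.1 and 46.2 CPM in NK KO, and 31.5 and 11.8 CPM in NK KE, so each pair of NK libraries differed by more than their groups did. In CD8 T cells it had 66.0 and 54.1 CPM in WT, 16.8 and 28.3 CPM in KO, and 57.0 and 42.4 CPM in KE. The KO libraries were the lowest of the 6, with -1.41 on the log2 scale against WT (SE 0.85, edgeR FDR 0.887) and -1.14 against KE (SE 0.84, FDR 1). In CD8 KO 4 of the 6 STAT genes (Stat2, Stat4, Stat5b and Stat6) had both libraries below both WT libraries, an order seen in 15.3% of all genes. For Stat4 this rests on CD8 KO 2 at 206.997 CPM against CD8 WT 2 at 207.216 CPM, a gap far under the spread between replicates. In this comparison 0.0527% of genes were called.

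Over the family, 0 of the 6 genes were called by edgeR in any of the 15 comparisons. The share of all genes called was 0% in KO against WT, in KE against WT and in KO against KE in NK cells, 0.0301% in both mutants against WT in NK cells, 0.0828% in KE against WT in CD8 T cells and 0% in KO against KE in CD8 T cells. At an unadjusted p under 0.05, 0 of the 6 genes differed between both mutants and WT in NK cells, where 9.04% of all genes did, and 1 (Stat2) was lower in CD8 T cells, where 4.35% of all genes were. The median log2 fold change of the 6 genes for both mutants was -0.20 in NK cells and -0.21 in CD8 T cells. For the interactions 0.00753% (KO), 0% (KE) and 0.0151% (both mutants) of genes were called.

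KO and KE were compared directly to see whether the protein without its kinase activity leaves another STAT pattern than its loss. The differences of the 6 genes lay between -0.10 (Stat4) and 0.50 (Stat5b) on the log2 scale in NK cells and between -1.14 (Stat5b) and 0.60 (Stat2) in CD8 T cells, with an FDR of 1 for each. The KO and KE libraries did not overlap for Stat2 in NK cells (0.43, SE 0.77) nor, in CD8 T cells, for Stat3 (0.43, SE 0.42), Stat4 (-0.45, SE 0.30) and Stat5b. Such an order is common with 2 libraries against 2. Of all genes, 13.8% had both NK KO libraries above both NK KE libraries, 15.1% had both CD8 KO libraries above both CD8 KE libraries and 13.9% had them below, so these orders are no result about the members. The widest 95% intervals were those of Stat5a, from -2.86 to 2.84 in NK cells, so a difference of several-fold was not detectable there.

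**Figure D5:**
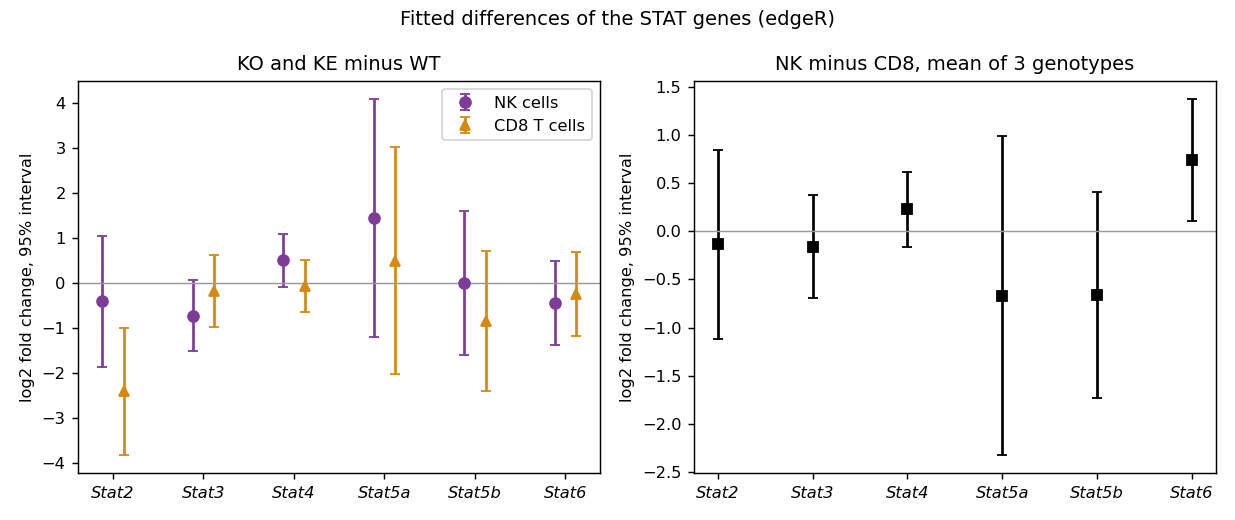
Fitted log2 fold changes (edgeR) with 95% intervals for both mutants against WT in NK cells (circles) and CD8 T cells (triangles), left, and for NK against CD8 over the 3 genotypes, right. The intervals leave out 0 for Stat2 in CD8 T cells (-3.83 to -0.995) and for Stat6 between the cell types (0.10 to 1.37), and both miss the FDR threshold.

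Between the cell types the largest positive difference was that of Stat6, whose NK minus CD8 value over the 3 genotypes was 0.74 on the log2 scale (SE 0.29, 95% interval 0.10 to 1.37, edgeR FDR 0.182). It was the 1 member of 6 that was higher at an unadjusted p under 0.05, where 9.35% of all genes were, and 4.47% of genes were called. The 6 NK libraries (124 to 326 CPM, median 161) and the 6 CD8 libraries (83.8 to 165 CPM, median 96.8) overlapped. The myeloid sums were 221 to 16276 CPM in these NK libraries and 59.8 to 590 CPM in the CD8 libraries, and their part in the difference was not tested. Within genotypes the difference was 0.87 in WT (SE 0.50), 1.04 in KO (SE 0.50) and 0.30 in KE (SE 0.49), the WT value was 0.05 without NK WT 1, and 0.776%, 0.904% and 0.7% of genes were called in these comparisons.

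Like Stat6, none of the other members was called in this comparison. Their values were 0.23 for Stat4 (SE 0.18), -0.14 for Stat2 (SE 0.44), -0.16 for Stat3 (SE 0.24), -0.66 for Stat5b (SE 0.48) and -0.67 for Stat5a (SE 0.75). Between the WT groups Stat2, Stat5a and Stat5b had both NK libraries below both CD8 libraries, as 19.5% of all genes did, with -1.47 for Stat2, -1.30 (SE 1.31) for Stat5a, which was -0.35 without NK WT 2, and -1.23 (SE 0.84) for Stat5b.

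Ratios of 2 members within a library do not depend on the scaling between libraries, and 3 were compared between the 6 NK and 6 CD8 libraries. The count ratio of Stat6 to Stat3 was 0.366 to 0.625 in NK and 0.165 to 0.531 in CD8 libraries, a difference of 0.87 in the mean log2 ratio (exact permutation test over all 924 regroupings, two-sided p = 0.0390, adjusted over the 3 ratios 0.117). The ratio of Stat4 to Stat3 differed by 0.38 (exact permutation p = 0.314, adjusted 0.471) and that of Stat5a to Stat5b by -0.49 (p = 0.857, adjusted 0.857, exact permutation test). None passed after adjustment. The last value was 0.63 without NK WT 2.

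Genes were also ranked by how closely their profile of log2 CPM over the 12 libraries, each centred on its own mean, followed that of a member, among 8469 genes. The measure is the root mean square difference, which describes likeness in these libraries only. The closest to Stat2 were Rab33b (0.55), Tor1aip2 (0.64) and 1810026B05Rik (0.64), where the median of all candidates was 1.43. For Stat4 they were Tmed5 (0.22), Srsf2 (0.23) and Cnbp (0.24), for Stat3 Anapc16 (0.26), Rbms1 (0.28) and Utrn (0.28), and for Stat6 Rela (0.31), Copg1 (0.32) and Hist1h1e (0.34). Stat5b was followed most closely by Gm26740 (0.42), Smc6 (0.47) and Atg5 (0.47), and Stat5a by Dhodh (0.60), Zpr1 (0.66) and S1pr1 (0.69). None of these 18 genes is an ISGF3 target of the list or a Janus kinase. The measure asks for shifts of the same size, and the ISGF3 targets mostly had larger fold changes than the members. Their absence therefore does not show that they moved in other directions.

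The rest of the pathway was read from lists of receptors, kinases, partners, inhibitors and targets. Of 23 tested receptor chains, 0 were called for both mutants, while at an unadjusted p under 0.05 the NK cells had 7 lower, where 6.85% of all genes were, and 1 higher, where 2.18% were. The CD8 T cells had 2 of the 23 lower at that level, against 4.35% of all genes. Il10ra, a receptor chain for interleukin 10, which signals through TYK2 and STAT3, had 95.5 CPM in the CD8 mutants against 488 CPM in WT (log2 fold change -2.41, SE 0.42, FDR 0.0646). Ifngr1 of the interferon gamma receptor, the other of the 2, had -0.49 (SE 0.15, FDR 0.570). In NK cells the lower receptor chains with the largest differences were Lifr, Csf3r and Il13ra1, with means of 0.0185, 0 and 0.187 CPM in the mutants. In the NK WT libraries Lifr had 1.59 and 30.2 CPM, Csf3r 6.28 and 6.71 CPM, and Il13ra1 0.167 and 56.4 CPM. The Il13ra1 difference thus rests on NK WT 2, since NK WT 1 lay below NK KE 2 (0.749 CPM). The myeloid sums given above were lower in the mutants as well, and their part in these differences was not tested.

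None of the 4 Janus kinases differed between mutants and WT at an unadjusted p under 0.05. Jak1 was higher in NK than in CD8 T cells, at a mean of 1218 against 608 CPM with no overlap (edgeR log2 fold change 0.998, FDR 0.00225), and was left uncalled by the threshold of 1 on that scale. Of the 6 partners 1, Irf9, was lower at an unadjusted p under 0.05 in the CD8 mutants. Of 20 inhibitors 2 (Usp18 and the phosphatase gene Ptpn1, -0.71) were lower at that level in NK and 3 (Usp18, Socs4 and Ptprc, -0.32) in CD8 mutants, against 6.85% and 4.35% of all genes, and Socs4 in CD8 T cells went from 63.6 to 18.1 CPM (log2 fold change -1.86, SE 0.60, FDR 0.621).

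Between the cell types, where 4.47% of all genes were called, 4 genes of these lists were. They were 2 of 23 tested receptor chains (Il2ra and Il7r), 1 of 8 STAT4 targets (Prf1) and 2 of 8 tested STAT5 targets (Il2ra and Bcl2). The other lists had none, so the count is no result about the lists. Il2ra, the alpha chain of the interleukin 2 receptor, was lower in NK than in CD8 T cells (8.98 against 69.0 CPM, log2 fold change -4.52, SE 0.66, edgeR FDR 0.00292), a fitted value that rests in part on the NK KO libraries with 0 and 0.443 CPM, as was Il7r of the receptor list (-1.81, FDR 0.0441). Bcl2, which protects from apoptosis, was higher in NK cells (640 against 228 CPM, 1.49, SE 0.25, FDR 0.00631), and so was Prf1 of the STAT4 list, the pore-forming perforin (1.46, SE 0.29, FDR 0.0172). Without being called, Il2ra had 16.5 and 27.9 CPM in NK WT, 0 and 0.443 CPM in NK KO, and 3.13 and 5.92 CPM in NK KE. Osm, a STAT5 target, had 23.2 CPM in the CD8 mutants against 0.0741 CPM in WT with overlapping libraries.

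Of 7 STAT3 targets 0 differed between both mutants and WT at an unadjusted p under 0.05 in either cell type. Of 3 tested STAT6 targets 1, Arg1, was lower at that level in the NK mutants (28.4 against 402 CPM), where 6.85% of all genes were. Between the cell types 2 of the 3 were higher in NK cells at that level, where 9.35% of all genes were. These were Il4ra (57.9 against 29.4 CPM, log2 fold change 1.10) and Arg1 (153 against 12.5 CPM), whose values near 0 leave no fold. Neither was called, and the part of the myeloid RNA in them was not tested. Between the cell types, uncalled genes with large differences in their lists were Pias4 (37.0 CPM in NK against 8.75 CPM in CD8 T cells, log2 fold change 2.10) and Pias1 (0.99) among the inhibitors, and Ifng (127 against 378 CPM, -1.47) and Gzmb (-0.89) among STAT4 targets. Ifngr2, Il6ra, Osm, Usp18 and Oas1a were also past an unadjusted p under 0.05, but with some libraries at or near 0, and are given without a fold. Ifngr2 had 25.7 and 114 CPM in NK WT and 19.7 CPM in NK KO 1, the 3 libraries with the largest myeloid sums, and at most 0.225 CPM in the other 3 NK libraries and 2.39 CPM in the CD8 libraries, and the part of the myeloid RNA in this was not tested. Il6ra had 7.55 CPM in NK and 12.4 CPM in CD8 T cells, Osm 54.3 and 15.5 CPM, and Usp18 113 and 95.9 CPM. Oas1a had the higher mean in NK cells, at 43.5 against 21.7 CPM, and a fitted value of the opposite sign, with both NK KE libraries at 0. Among STAT3 targets Fos (1.72) and Junb (0.69) were higher in NK cells at that level, and Il10 had no count in NK cells and 5.60 CPM in CD8 T cells. Irf7 of the ISGF3 targets had 255 CPM in NK and 133 CPM in CD8 T cells (1.16).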

How the data were processed

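RNA of 300 sorted cells per library was amplified by Smart-seq2. The authors trimmed the reads with Trimmomatic, aligned them to GRCm38 with STAR and counted reads with a single alignment over the exons of each gene with summarizeOverlaps; the deposited values are raw counts per gene, neither normalized nor pooled. No molecular identifiers were stated, so counts include PCR duplicates. Groups and replicate numbers came from the sample titles.

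Here, counts were fitted with edgeR 4.0.16 in R 4.3.3 (TMM, robust quasi-likelihood F-test, two-sided) with one mean per group over all 12 libraries. The filter kept 13279 genes whose normalized counts averaged 10 or more. FDR is the Benjamini-Hochberg adjusted p over these genes, and calls needed an FDR under 0.05 and a log2 fold change of 1 or more in size. SEs were derived from the fold change and its F statistic. DESeq2 1.42.0, other filters and scalings, a replicate block and leaving out each library were alternatives. TPM used GENCODE M21 exon lengths on GRCm38, a later release than the authors' annotation. Promoter letters came from RefSeq, GRCm38.p6. The fit was tested on simulated counts.

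Total counts of 10378761 to 14732882 per library set the counting error, while libraries of a group varied by 109% (common biological coefficient of variation). That of the 6 genes lay between 29.1% (Stat4) and 88.1% (Stat5a). The members and gene lists were chosen with earlier results of these data known. Each member is named in every library, with the 3 genes of the most similar profile. Listed pathway genes are named if called or if among the 3 of a list with the largest absolute log2 fold change at an unadjusted p under 0.05 between mutants and WT or between cell types. Irf9 in NK cells and Bst2 were named after their values were seen. A further member of the family is not reported here.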

Additional observations from a re-analysis of the deposited data

How the results depend on the processing

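Counts of called STAT genes stayed at 0 in 183 of 186 alternatives over the 15 comparisons. DESeq2 called 1 of the 6, Stat2, in CD8 KE against WT and in CD8 both mutants against WT, and edgeR without the filter on low counts called 1, also Stat2, in the latter. The cause was not tested. Of 474 alternative fold changes of single members 19 changed sign, none of them for a called value. For Stat2 in NK cells, leaving out NK WT 2 turned KO to 0.78 (range over the left-out libraries -0.78 to 0.78), KE to 0.35 (-1.20 to 0.35) and both mutants to 0.57 (-0.99 to 0.57), and for Stat2 between the cell types leaving out NK WT 1 gave 0.05 and leaving out CD8 KE 2 gave 0.43 (range -0.47 to 0.43). For Stat5b in NK both mutants, which was 0.0049, the sign changed under the DESeq2 size factors (-0.0054), DESeq2 (-0.0057), and without NK WT 1 (-0.42), NK KO 2 (-0.51) or NK KE 1 (-0.43), with a range of -0.51 to 0.61. Stat6 in NK both mutants was 0.34 without NK WT 1 (range -0.98 to 0.34). In CD8 both mutants, Stat3 was 0.43 (range -0.59 to 0.43) and Stat4 0.14 (range -0.23 to 0.14) without CD8 WT 1, Stat4 was 0.0044 without CD8 KE 2, Stat6 was 0.054 without CD8 WT 2 (range -0.51 to 0.054), and Stat5a, with Stat5b added to it, was -0.27. Stat6 in KE between the cell types was -0.01 without NK KE 2 and -0.078 without CD8 KE 2 (range -0.078 to 0.83), and Stat3 over the genotypes was 0.039 without CD8 WT 1 (range -0.36 to 0.039). With each library left out in turn, the log2 ratio difference lay between -0.91 and 0.63 for Stat5a to Stat5b and between 0.73 and 1.07 for Stat6 to Stat3, where it passed without CD8 KE 1 (adjusted exact permutation p = 0.0325).

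Replicate numbers were not stated to pair the libraries. Over the 15 pairs of groups, the correlation of same-numbered deviations across genes was -0.03 to 0.04. The wide spread between libraries of a group could hide a shared source, so these values cannot show whether same-numbered libraries were paired. With a replicate block 0 of the 6 genes were called in all 15 comparisons, and Stat2 in CD8 both mutants was -2.58 (FDR 0.480). With 2 libraries a group, the coefficient of variation between them was 29.1% to 88.1% for the 6 genes, and the 5 counts of Stat5a in NK WT 2 are the thinnest value.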
